A study of Homo sapiens with 6 samples.

Results

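The mitochondrial ribosomal protein genes were taken as every gene whose symbol is MRPL or MRPS followed by a number and at most 1 letter, which gave 78 genes of the 61541 in the count table. They comprise 49 MRPL genes, named for the large subunit, and 29 MRPS genes, named for the small subunit. Their transcripts were measured by bulk RNA-seq in H9, a wild-type cutaneous T-cell lymphoma line that the study classes as MCL-1 independent. Cells were exposed to AZD4573, a selective inhibitor of the kinase CDK9, for 4 h at 50 nM, or to the vehicle DMSO, with 3 libraries per group. The labels give a time for AZD4573 only, and the dose is taken from the study's text. CDK9 is the kinase of P-TEFb and releases paused RNA polymerase II into productive elongation. All libraries come from this single line, and nothing in the labels says that the replicates were separate cultures, so p-values measure only the spread between these libraries.

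Mitochondrial ribosomes translate the few proteins encoded by mitochondrial DNA, all of them core subunits of the respiratory chain or of ATP synthase. Their rRNAs are transcribed inside the organelle by the mitochondrial RNA polymerase, POLRMT, whereas every ribosomal protein is encoded in the nucleus, transcribed by RNA polymerase II, made in the cytosol and imported. Some of these proteins descend from bacterial ribosomal proteins and others are found only in mitochondrial ribosomes. In cells that rely on oxidative phosphorylation, loss of many single members impairs respiration.

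Total counts per library ran from 70367303 to 76571157 with DMSO and from 52101868 to 63795185 with AZD4573. All 78 genes passed the filter on low counts, as did 17678 genes in all. The lowest member in every library was MRPS36, with 616 to 779 counts under DMSO and 318 to 379 counts under AZD4573. The highest was MRPL4, with 19671 to 21956 and 13330 to 16264 counts. The T-cell markers CD3D, CD3E and CD3G stood at 143, 154 and 135 CPM with DMSO, while CD4 (3.83 CPM), CD7 (0.602 CPM) and CD2 (0.105 CPM) were low or near 0. Among markers of other cell types, EPCAM (155 CPM), CD79A (57.8 CPM) and COL1A1 (6.31 CPM) were detected above 1 CPM and HBB was at 0 in every library. CPM, used for all levels, is the count relative to the TMM-scaled library size, and a fold change is the log2 of AZD4573 over DMSO from edgeR's quasi-likelihood fit over all genes tested, called at a Benjamini-Hochberg adjusted p under 0.05.

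Promoters of 70 of the 78 genes were matched in RefSeq (GRCh38.p14), each as 300 bases, 250 before and 50 after the annotated start. MRPL2, MRPL10, MRPL13, MRPL15, MRPL21, MRPL23, MRPL35 and MRPS28 had no entry in the table used here. Letters known from binding sites of the transcription factor YY1 (AAGATGGCG, either strand) occurred in 13 of the 70 promoters (18.6%), against 1.85% of all 27305 promoters and 3.85% of the 11299 that belong to genes tested. The 13 stretches of 30 bases are shown because MRPL36, MRPL50, MRPL46, MRPS30 and MRPS18A, whose falls were among the largest, carry them. They are ordered from the lowest to the highest fold change and read along the gene's own strand, with the YY1 letters, or their reverse complement, in capitals.

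MRPL36 (chr5:1799854-1799883, minus strand): ccccccccgcCGCCATCTTccttcctggca
MRPL50 (chr9:101398576-101398605, minus strand): gatctcatcgAAGATGGCGgcgcgatctgt
MRPL46 (chr15:88467361-88467390, minus strand): gggagaacgaAAGATGGCGgcgcccgtaag
MRPS30 (chr5:44808950-44808979, plus strand): atcgcgggcaAAGATGGCGgcggccaggtg
MRPL32 (chr7:42932143-42932172, plus strand): acccgcgctcCGCCATCTTtacccgaagag
MRPS18A (chr6:43687763-43687792, minus strand): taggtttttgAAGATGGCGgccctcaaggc
MRPS10 (chr6:42217833-42217862, minus strand): cgggaccggcAAGATGGCGgcgcggacagc
MRPL22 (chr5:154941093-154941122, plus strand): gtagcgggagggcgaAAGATGGCGgcggca
MRPL38 (chr17:75904859-75904888, minus strand): ggccggagggAAGATGGCGgcgccctggtg
MRPS24 (chr7:43869479-43869508, minus strand): cgcttggcccAAGATGGCGgcctccgtgtg
MRPS18B (chr6:30617853-30617882, plus strand): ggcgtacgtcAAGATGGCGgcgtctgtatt
MRPL42 (chr12:93467512-93467541, plus strand): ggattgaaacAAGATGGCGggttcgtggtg
MRPL52 (chr14:22829779-22829808, plus strand): acgatgacccAAGATGGCGgagccgtgatt

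In 9 of the 13 genes the capitals span the annotated start codon of the canonical GENCODE transcript, the ATG within the motif. In MRPL42 they lay in the 5′ untranslated region, and in MRPL36, MRPL32 and MRPL52 they lay upstream of the start. For MRPL32 and MRPL52 they also lie past the annotated start of a gene on the other strand, PSMA2 and SLC7A7. They are thus within that gene and cannot be assigned to the member alone. Of the 13 members, 4 also carry the ETS letters described next, and the first matches of the 2 motifs share no bases. A match of letters describes the sequence and does not show that a factor binds there.

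Letters of the ETS family, which includes GABP, a factor known to act at promoters of many nuclear genes for mitochondrial proteins (CCGGAAG, either strand), occurred in 29 of the 70 promoters (41.4%), against 10.7% of all promoters and 19.0% of those of genes tested. The first match is given for 4 genes with large falls and for 3 genes that rose, so that both directions can be seen. The capitals of MRPL27 lie past the annotated start of EME1, a gene on the other strand, and cannot be assigned to the member alone. Among the others of the 29, the first matches of MRPL30 and MRPS18C lie in the same way past the starts of MITD1 and HELQ.

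MRPL27 (chr17:50373218-50373247, minus strand): ccacgcagggcCCGGAAGtagatctcctga
MRPL58 (chr17:75012466-75012495, plus strand): atcggggcactCTTCCGGtagcagctcgct
MRPS22 (chr3:139343896-139343925, plus strand): tctataagggcCCGGAAGacttccggccct
MRPS26 (chr20:3046004-3046033, plus strand): tccccgcgccgCTTCCGGggcacggtggcg
MRPL48 (chr11:73787800-73787829, plus strand): aatttcagaagCTTCCGGaactaaaatgat
MRPL53 (chr2:74472734-74472763, minus strand): gcagccggcggCCGGAAGtctatcccgcag
MRPS33 (chr7:141014934-141014963, minus strand): agagggcgggcCTTCCGGgacgagggcgcg

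Letters of NRF1 (CGCATGCG, either strand), a regulator of nuclear genes for respiration, were found in 3 of the 70 promoters (4.29%), those of MRPL17, MRPL22 and MRPS18C, against 3.92% for genes tested. The TATA box letters (TATAAA, either strand) were found in 3 promoters (4.29%), against 5.94% for genes tested.

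The first question was how transcripts of the 2 subunits stood after 4 h of CDK9 inhibition. Most were lower relative to the rest of the transcriptome. Of the 78 genes, 51 fell, 10 rose and 17 were not called, and all 10 rises turned into falls when libraries were scaled to the mitochondrial mRNAs. "Rose" is therefore said throughout relative to the bulk of transcripts in a library. Among all genes tested, 37.4% fell and 37.3% rose, so the falls were more frequent among the members (65.4%) and the rises less frequent (12.8%). The median log2 fold change of the members was -0.39, with quartiles of -0.86 and -0.07, and it was 0.03 over all genes tested. When a change of at least 1.5-fold was also required, 30 members fell and none rose, against 23.7% and 22.7% of all genes tested. The 3 AZD4573 libraries lay wholly below the 3 DMSO libraries for 54 members and wholly above for 9 members. The same held for 38.7% and 39.0% of all genes tested. These CPM values are shares of a library, so a lower share and less RNA of the gene per cell cannot be told apart.

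**Figure D1:**
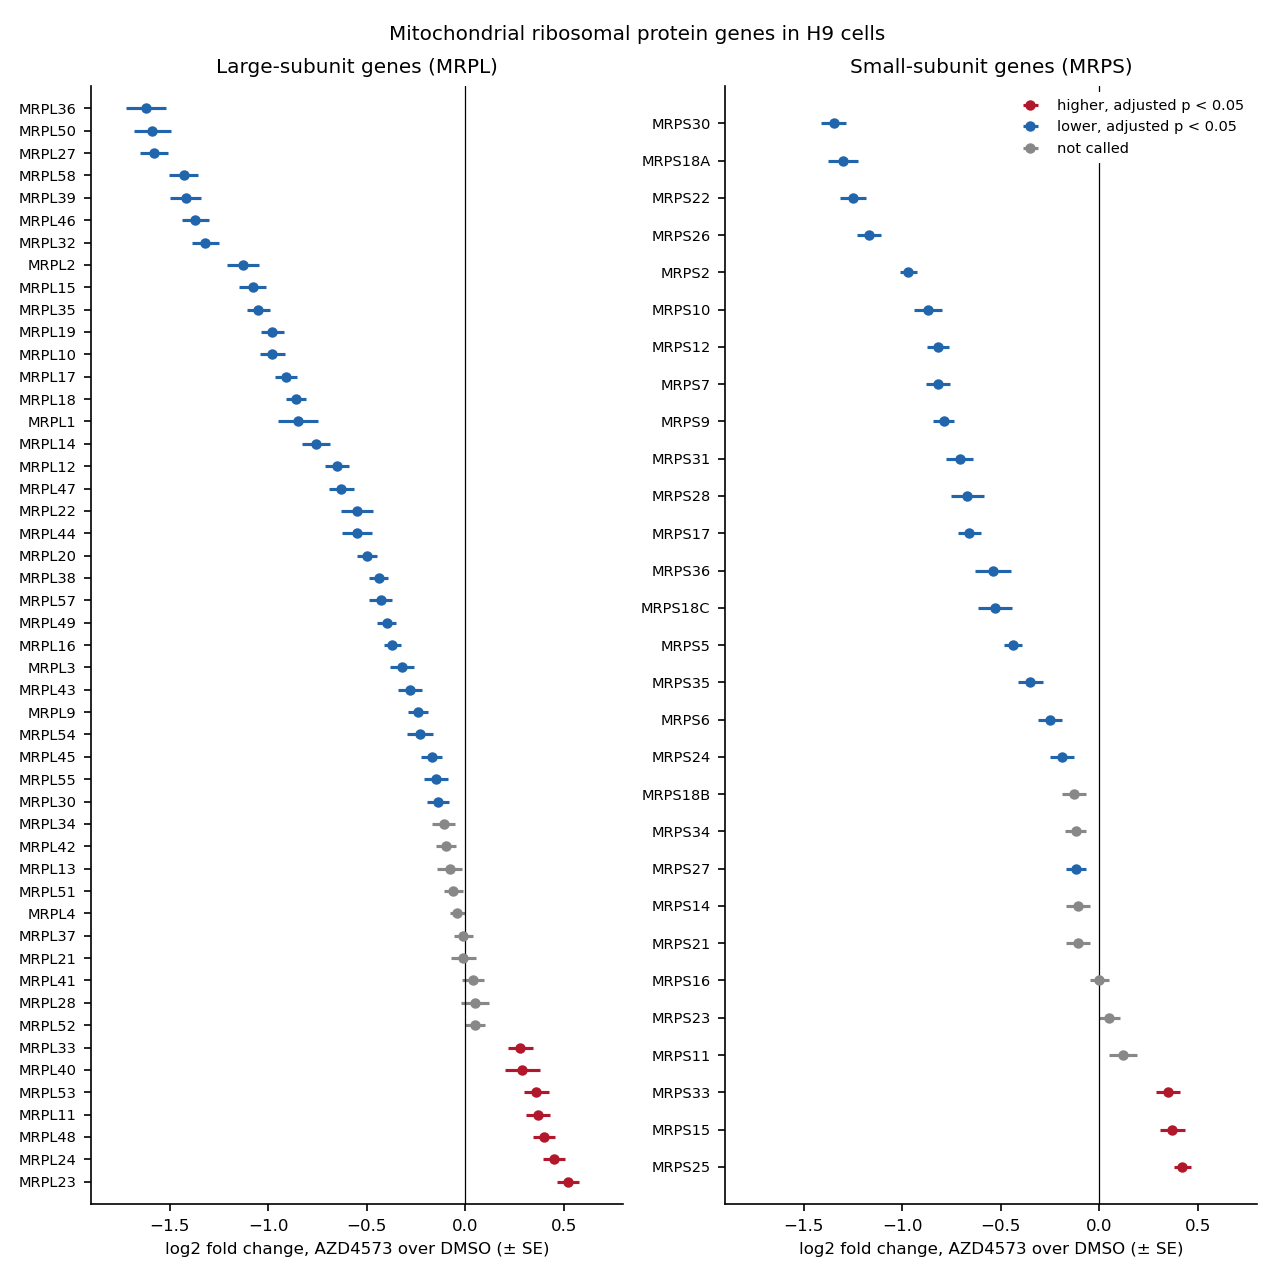
Each point is the log2 fold change of 1 gene, AZD4573 over DMSO (n = 3 libraries per group), with its standard error. Genes of each subunit are ordered from the largest fall to the largest rise, from -1.62 to 0.52 in the large subunit and from -1.35 to 0.42 in the small subunit, and blue, red and grey mark genes that were lower, higher and not called. The 10 genes in red lie below 0 when libraries are scaled to the mitochondrial mRNAs.

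Both subunits had similar counts. In the large subunit 32 of 49 genes fell (65.3%), 7 rose and 10 were not called, with a median of -0.37. In the small subunit 19 of 29 genes fell (65.5%), 3 rose and 7 were not called, with a median of -0.44. Falls of at least 1.5-fold numbered 18 in the large and 12 in the small subunit. By level, 14 members stood at or below 50% of their DMSO value, 24 between 50% and 75%, 25 between 75% and 100% and 15 above it. These classes were not counted over all genes tested, whose log2 fold changes had quartiles of -0.59 and 0.58. The coefficient of variation within a group had a median of 5.48% over the members with DMSO and of 4.66% with AZD4573, and the widest was that of MRPL36 with AZD4573 (17.6%).

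The largest fall in the large subunit was that of MRPL36, the homolog of a small zinc-binding protein of the bacterial ribosome. MRPL36 stood at 27.8, 24.6 and 25.3 CPM with DMSO and at 10.1, 7.47 and 7.68 CPM with AZD4573, a log2 fold change of -1.62 (SE 0.102, adjusted p = 7.5e-09). Next came MRPL50, a protein found only in mitochondrial ribosomes, at 25.4, 27.0 and 25.9 CPM against 10.3, 8.28 and 7.59 CPM (log2 fold change -1.59, SE 0.0934, adjusted p = 3.9e-09). The AZD4573 values of these genes lay near 33% of their DMSO values in the group means, 32.6% and 33.4%. MRPL27 belongs to a family that lies close to the peptidyl transferase centre, where peptide bonds are made. It fell from 31.8, 29.7 and 31.4 CPM to 11.3, 9.95 and 9.90 CPM (log2 fold change -1.58, SE 0.0694, adjusted p = 3.3e-10). MRPL58, also known as ICT1, is a peptidyl-tRNA hydrolase that can rescue stalled ribosomes. Its values were 57.4, 49.7 and 48.3 CPM with DMSO and 20.8, 18.5 and 18.4 CPM with AZD4573 (log2 fold change -1.43, SE 0.0749, adjusted p = 1.4e-09). MRPL39, a mitochondria-specific protein, fell from 28.3, 28.0 and 26.7 CPM to 11.6, 10.1 and 9.29 CPM (log2 fold change -1.42, SE 0.0792, adjusted p = 2.3e-09). In none of these 5 genes did the groups overlap, which was a condition for giving a fall in full.

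Falls of at least 2-fold were also seen for MRPL46 (-1.37), MRPL32 (-1.32), MRPL2 (-1.13), MRPL15 (-1.08) and MRPL35 (-1.05), so 10 large-subunit genes fell that far. The share of all genes tested that did so was not counted. MRPL32 carries a presequence that the m-AAA protease removes before the protein joins the ribosome, and MRPL2 is a core protein near the peptidyl transferase centre. MRPL12, which forms the side stalk that contacts translation factors and is also known to bind POLRMT, fell from 133, 120 and 117 CPM to 85.2, 74.5 and 77.0 CPM (log2 fold change -0.65, SE 0.0611, adjusted p = 4.1e-07). MRPL10, its anchor on the ribosome, fell by 0.98 on the log2 scale, whereas MRPL11 at the stalk base rose (0.37). MRPL12 shares 69.5% of its annotated exon bases with an overlapping gene on the same strand, and reads from these genes cannot be told apart there.

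The 2 largest rises of the large subunit were those of MRPL23 and MRPL24, homologs of bacterial proteins beside the exit of the peptide tunnel. Genes of other proteins known from the tunnel or its exit fell, among them MRPL39 (-1.42), MRPL32 (-1.32), MRPL17 (-0.91), MRPL47 (-0.63), MRPL44 (-0.55), MRPL22 (-0.55) and MRPL45 (-0.17), and MRPL4 was not called, so these genes did not share a direction. MRPL23 stood at 95.9, 83.9 and 84.9 CPM with DMSO and at 128, 121 and 131 CPM with AZD4573 (log2 fold change 0.52, SE 0.0562, adjusted p = 1.6e-06). MRPL24 rose from 42.0, 38.2 and 41.5 CPM to 55.9, 53.2 and 57.0 CPM (log2 fold change 0.45, SE 0.0542, adjusted p = 5.1e-06). Every AZD4573 library lay above every DMSO library for both genes, as the choice of rises given in full required.

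The other rises were smaller. MRPL48, a mitochondria-specific protein, stood at 60.4, 52.7 and 53.3 CPM against 73.2, 71.4 and 74.5 CPM (log2 fold change 0.40, SE 0.0566, adjusted p = 2.4e-05). MRPL11 stood at 95.5, 82.6 and 79.2 CPM against 111, 108 and 113 CPM (log2 fold change 0.37, SE 0.0621, adjusted p = 0.00011). MRPL53 had 23.2, 21 and 22.1 CPM against 29.4, 26.5 and 29.3 CPM (log2 fold change 0.36, SE 0.0642, adjusted p = 0.00019). The groups of these 3 genes did not overlap, by the same condition. Of the exon bases of MRPL53, 99.4% are shared with other genes, among them CCDC142 on the same strand. MRPL33 (0.28) rose without overlap. MRPL40 (0.29) passed the test although its DMSO value of 18.1 CPM in replicate 1 exceeded the lowest AZD4573 value of 17.9 CPM, and its call was lost without DMSO replicate 2 (adjusted p = 0.075) or AZD4573 replicate 3 (adjusted p = 0.06).

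The 10 large-subunit genes that were not called were MRPL4, MRPL13, MRPL21, MRPL28, MRPL34, MRPL37, MRPL41, MRPL42, MRPL51 and MRPL52, with log2 fold changes between -0.11 and 0.05. The most abundant member per kilobase of transcript was in this set. MRPL4 stood at 280, 269 and 273 CPM with DMSO and at 262, 272 and 266 CPM with AZD4573, and the groups overlapped (log2 fold change -0.04, SE 0.0388, adjusted p = 0.41). On the scale of CPM per kilobase it led the large subunit with DMSO (225), ahead of MRPL16 (138) and MRPL23 (131), and the median of the subunit was 37.7. MRPL16, which sits near the transfer RNA binding sites, fell from 155, 147 and 146 CPM to 113, 118 and 115 CPM (log2 fold change -0.37, SE 0.043, adjusted p = 3e-06).

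In the small subunit the 2 largest falls were of genes whose proteins are found in the large subunit in structures of the mammalian mitochondrial ribosome. MRPS30 stood at 62.3, 56.7 and 54.3 CPM with DMSO and at 23.5, 21.5 and 23.1 CPM with AZD4573 (log2 fold change -1.35, SE 0.0633, adjusted p = 5.3e-10). MRPS18A fell from 86.4, 76.0 and 73.1 CPM to 35.6, 30.2 and 30.1 CPM (log2 fold change -1.3, SE 0.0765, adjusted p = 4e-09). Their AZD4573 means were 39.2% and 40.7% of the DMSO means. Of the exon bases of MRPS18A, 50.9% overlap RSPH9 on the other strand.

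MRPS22, a mitochondria-specific protein in which inherited variants cause mitochondrial disease, followed at 44.6, 41.6 and 41.9 CPM against 19.4, 17.9 and 16.6 CPM (log2 fold change -1.25, SE 0.0656, adjusted p = 1.4e-09). Of its exon bases, 42.8% are shared with other genes, most of them with COPB2 on the other strand. MRPS26 was the most abundant small-subunit gene per kilobase with DMSO, at 173 CPM per kilobase. It fell from 190, 172 and 166 CPM to 83.3, 76.9 and 74.0 CPM (log2 fold change -1.17, SE 0.0588, adjusted p = 9.5e-10). MRPS2, a homolog of a bacterial protein, had 147, 141 and 141 CPM with DMSO and 73.1, 72.9 and 73.4 CPM with AZD4573 (log2 fold change -0.97, SE 0.0418, adjusted p = 2.9e-10). The 3 AZD4573 values of MRPS2 lay closer together than those of any other member, with a coefficient of variation of 0.363%. MRPS12, homolog of a bacterial protein at the decoding centre, fell by 0.82 on the log2 scale.

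The 3 rises in the small subunit were of MRPS25, MRPS15 and MRPS33. MRPS25 stood at 63.2, 62.3 and 62.6 CPM against 82.5, 83.3 and 86.1 CPM (log2 fold change 0.42, SE 0.0436, adjusted p = 1e-06). MRPS15, a homolog of a bacterial protein that binds small-subunit rRNA, had 93.0, 76.8 and 80.3 CPM against 110, 103 and 111 CPM (log2 fold change 0.37, SE 0.0648, adjusted p = 0.00014). MRPS33 had 39.7, 33.9 and 35.9 CPM against 46.4, 46.2 and 46.9 CPM (log2 fold change 0.35, SE 0.0603, adjusted p = 0.00014). Groups did not overlap in any of the 3, the condition for giving a rise in full. Of the exon bases of MRPS25, 45.9% are shared with other genes, most of them with NR2C2 on the other strand.

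The 7 small-subunit genes not called were MRPS11, MRPS14, MRPS16, MRPS18B, MRPS21, MRPS23 and MRPS34. MRPS34 was the second gene of the subunit per kilobase with DMSO (142 CPM per kilobase, ahead of MRPS24 at 106). It stood at 154, 135 and 135 CPM against 130, 128 and 133 CPM (log2 fold change -0.12, SE 0.0532, adjusted p = 0.061), and passed the test without DMSO replicate 2 (adjusted p = 0.032) or 3 (adjusted p = 0.025). EME2 on the other strand overlaps 31.2% of the exon bases of MRPS34. MRPS24 fell from 77.6, 66.3 and 68.8 CPM to 65.0, 60.3 and 61.8 CPM (log2 fold change -0.19, SE 0.0606, adjusted p = 0.013), a call lost without AZD4573 replicate 2 (adjusted p = 0.057). MRPS14, MRPS18B and MRPS34 lay lower in every AZD4573 library than in any DMSO library, without passing the test.

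MRPS18A, MRPS18B and MRPS18C encode 3 relatives of a single bacterial protein, and their log2 fold changes were spread out. MRPS18A fell by 1.3 on the log2 scale and MRPS18C fell by 0.53, from 14.8, 12.7 and 14.3 CPM to 10.3, 9.0 and 9.65 CPM (SE 0.0847, adjusted p = 7.4e-05). ABRAXAS1 on the other strand overlaps 40.2% of the exon bases of MRPS18C. MRPS18B stood at 37.4, 33.3 and 32.9 CPM against 30.5, 31.2 and 32.8 CPM (log2 fold change -0.13, SE 0.0625, adjusted p = 0.072), and passed without DMSO replicate 3 (adjusted p = 0.038). MRPS18A and MRPS18B both carry the YY1 letters over the start codon, as shown above. MRPS36 bears a ribosomal symbol, but its protein is known as KGD4, a subunit of the oxoglutarate dehydrogenase complex. It fell from 9.93, 9.04 and 8.36 CPM to 6.25, 6.37 and 6.21 CPM (log2 fold change -0.54, SE 0.0922, adjusted p = 0.00013).

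**Figure D2:**
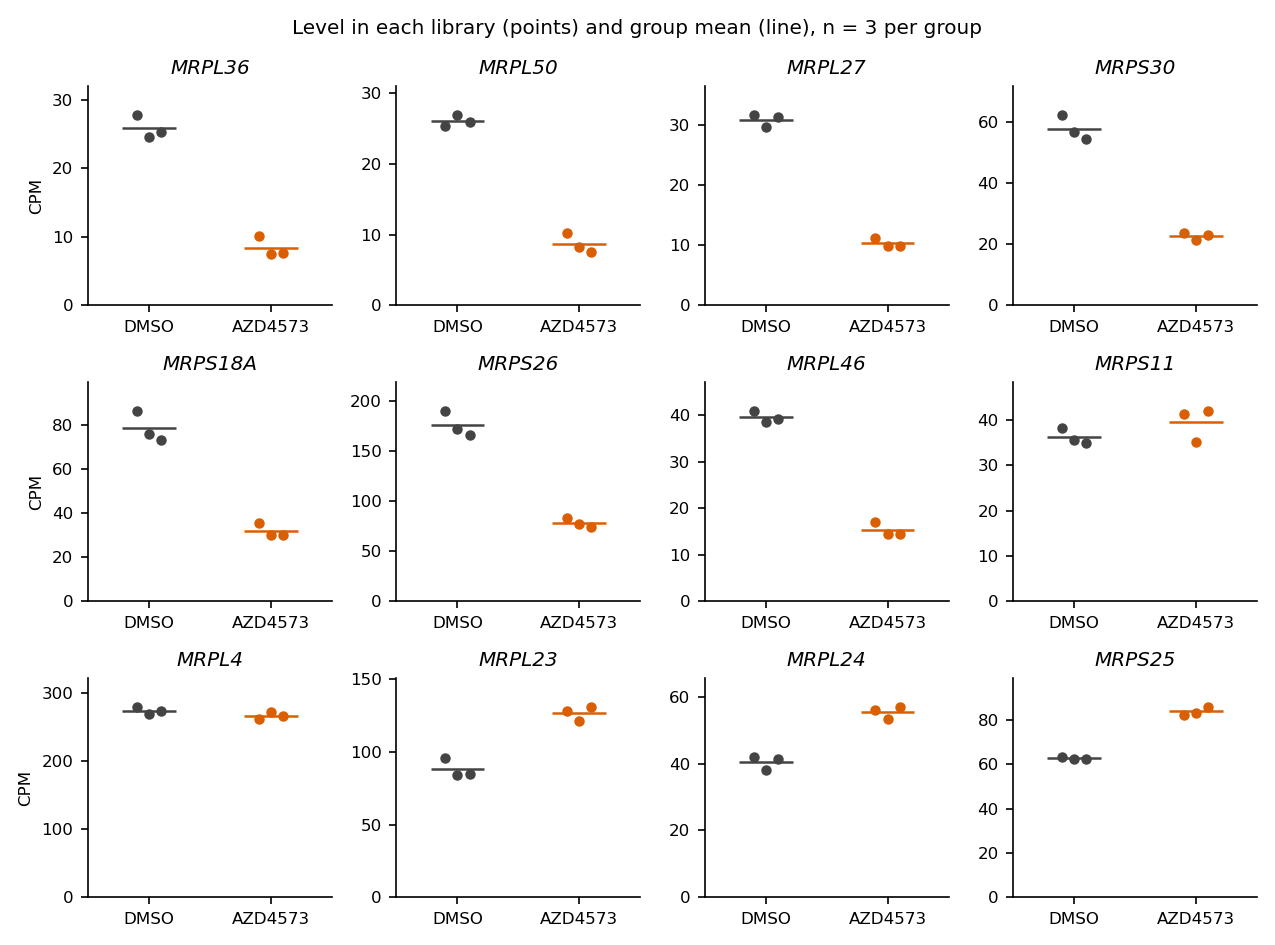
Levels in CPM of 12 members in each of the 6 libraries, with points for libraries, a line for the group mean and vertical axes that start at 0. From MRPL36 to MRPL46 every AZD4573 library lies below every DMSO library, MRPS11 and MRPL4 overlap, and MRPL23, MRPL24 and MRPS25 lie higher with AZD4573 on this scale but not when scaled to the mitochondrial mRNAs.

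Members with a bacterial homolog and members specific to mitochondria were described apart, with MRPS36 set aside. Of 48 members with a bacterial homolog, 33 fell and 5 rose, with a median of -0.51. Of 29 mitochondria-specific members, 17 fell and 5 rose, with a median of -0.23. By the subunit that holds the protein in the structure, the medians were -0.55 for 31 large-subunit and -0.44 for 17 small-subunit members with a bacterial homolog. They were -0.25 for 20 large-subunit and -0.12 for 9 small-subunit mitochondria-specific members. The difference between these groups was not tested.

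Summed over the members, the share of each library changed little within a group. The 78 genes held 0.523%, 0.488% and 0.490% of counts with DMSO and 0.381%, 0.356% and 0.363% with AZD4573. The large subunit went from 0.319% ± 0.0124 to 0.239% ± 0.00862 and the small subunit from 0.181% ± 0.00751 to 0.128% ± 0.00416 (SD, n = 3 per group). DMSO replicate 1 was the highest of the controls, with a median member at 0.09 on the log2 scale over the DMSO mean in both subunits, against -0.04 and -0.05 in the other replicates. In the AZD4573 libraries the median member lay between -0.36 and -0.38 in the large and between -0.43 and -0.46 in the small subunit.

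The ratio of summed large-subunit to summed small-subunit CPM was 1.75, 1.75 and 1.76 with DMSO and 1.87, 1.85 and 1.86 with AZD4573. These groups did not overlap, and the size of the shift in this sum depends on which genes are counted. MRPS26 alone lost 97.6 CPM, more than any other member. Without MRPS26, a calculation added after its values were seen, the ratio averaged 1.95 ± 0.003 with DMSO and 1.97 ± 0.0114 with AZD4573 (SD, n = 3 per group). The groups still did not overlap. Taking out this small-subunit gene was bound to shrink the rise, and no large-subunit gene was taken out in turn. With MRPS30 and MRPS18A counted in the large subunit, where their proteins are found, the ratio averaged 1.99 ± 0.00193 and 1.98 ± 0.0147, and the groups overlapped. Per kilobase of transcript, which takes out the weight of transcript length, the shift was larger. The ratio of mean CPM per kilobase was 1.22, 1.23 and 1.24 with DMSO and 1.39, 1.39 and 1.40 with AZD4573, and the ratio of medians was 1.53, 1.42 and 1.51 against 1.76, 1.80 and 1.97. Both remained apart without MRPS26, at 1.37 ± 0.00722 against 1.47 ± 0.00128 for the means and 1.52 ± 0.0462 against 1.89 ± 0.116 for the medians. They also remained apart with MRPS30 and MRPS18A in the large subunit, at 1.24 ± 0.00494 against 1.33 ± 0.00469 and 1.55 ± 0.0446 against 1.81 ± 0.105. Whether the ratio of the subunits shifted thus depends on how the genes are weighed.

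**Figure D3:**
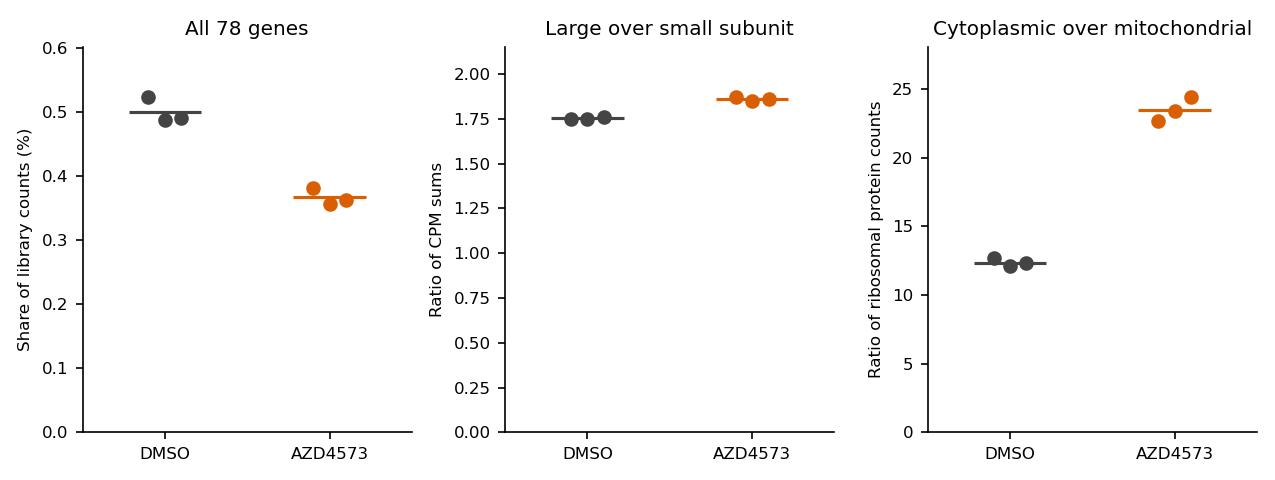
Each point is a library and each line a group mean (n = 3), for the share of library counts held by the 78 genes, the ratio of large-subunit to small-subunit CPM sums, and the ratio of cytoplasmic to mitochondrial ribosomal protein counts, on axes that start at 0. The share is lower with AZD4573 (0.367% against 0.500%), the second ratio moves from 1.75 to 1.86, and the third from 12.4 to 23.5.

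Many members begin next to another gene transcribed in the opposite direction. In GENCODE, 17 members start within 1000 bases of a named protein-coding partner that was tested, in 16 pairs. Starts are the outermost ends of the annotated genes, and pairs whose genes overlap at their starts were left out. The closest were MRPL49 with FAU, 6 bases apart, and MRPL27 with EME1, 13 bases apart. MRPL46 and MRPS11 face away from each other on chromosome 15 with 63 bases between their starts, so both genes of this pair are members. MRPL46 stood at 41.0, 38.5 and 39.3 CPM with DMSO and at 17.1, 14.5 and 14.5 CPM with AZD4573. MRPS11 stood at 38.2, 35.7 and 34.9 CPM against 41.4, 35.1 and 42.1 CPM, with overlapping groups (log2 fold change 0.12, SE 0.0701, adjusted p = 0.13). Without AZD4573 replicate 2, its low value, MRPS11 passed the test as higher (log2 fold change 0.20, adjusted p = 0.014). The ratio of MRPL46 to MRPS11 was 1.07, 1.08 and 1.13 with DMSO and 0.414, 0.412 and 0.344 with AZD4573. Its log2 value was lower by a difference of -1.49 with AZD4573. The pair was singled out after its values were seen, so this difference is a description without a test.

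Of the 15 members in these pairs whose partner lies outside the list, 13 fell. Among the partners of these 13, 5 fell, 6 rose and 2 were not called, which lies near the shares of all genes tested (37.4% lower and 37.3% higher). The 6 rises became falls when libraries were scaled to the mitochondrial mRNAs (-0.56 to -0.17), while the gap between the genes of a pair is set within each library. MRPL36 fell by 1.62 on the log2 scale while NDUFS6, a subunit of respiratory complex I that starts 41 bases away by the outermost ends, rose by 0.26. The RefSeq promoter window of MRPL36 (chr5:1799788-1800087) and its canonical transcript lie further inside the gene, whose outermost end is at 1801366. From those starts the pair would not meet the limit of 1000 bases. MRPL27 fell by 1.58 while EME1, a subunit of a structure-specific DNA endonuclease, rose by 0.36. MRPL32 fell by 1.32 and the proteasome subunit gene PSMA2 rose by 0.21. MRPL47 fell by 0.63 while NDUFB5, another complex I subunit, rose by 0.52. MRPL49 fell by 0.40 and FAU, which encodes a cytoplasmic ribosomal protein fused to a ubiquitin-like domain, rose by 0.56. The opposite order was seen for MRPL21 (-0.01, not called) beside IGHMBP2 (-1.03), and for MRPS18C (-0.53) beside the helicase gene HELQ (-1.52).

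**Figure D4:**
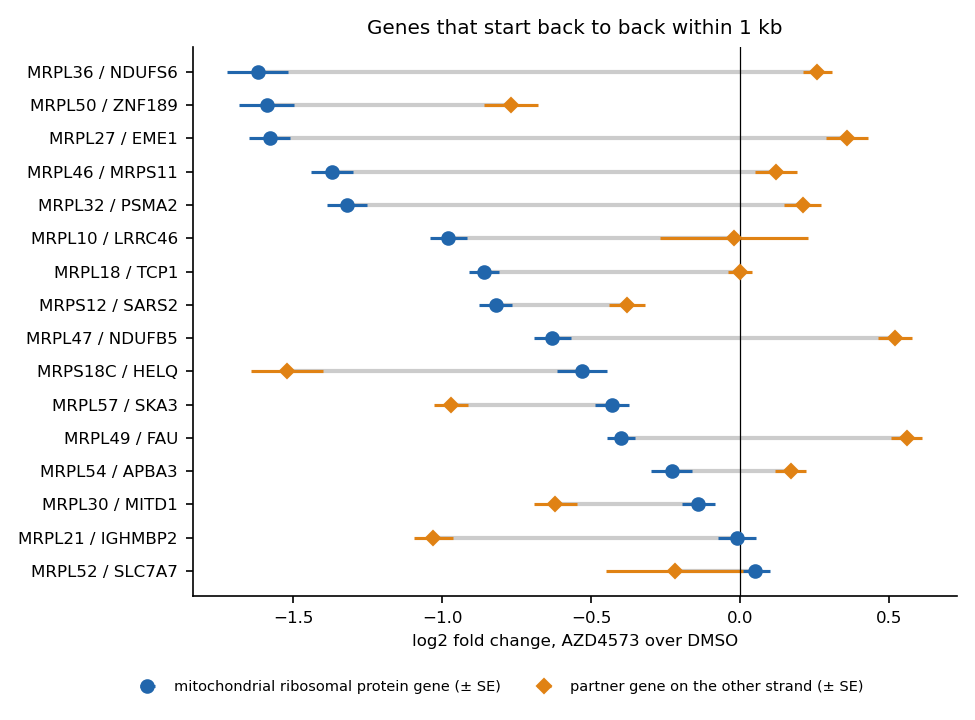
Log2 fold changes of members (circles) and of the partner gene on the other strand (diamonds), with standard errors, ordered by the member. Starts within 1000 bases are taken from the outermost ends of the GENCODE genes, and that of MRPL36 lies outside its canonical transcript. The partners of MRPL36, MRPL27, MRPL32, MRPL47 and MRPL49 lie above 0 while these members lie below it (all lie below 0 when scaled to the mitochondrial mRNAs), and MRPL46 and MRPS11 are both members.

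The promoter letters shown above were set beside the fold changes as a description. Counting MRPL32 and MRPL52, whose letters lie within a gene on the other strand, 13 members carried the YY1 letters. Of these, 10 fell, none rose and the median was -0.87. Their range ran from -1.62 (MRPL36) to 0.05 (MRPL52), and MRPS24 (-0.19), MRPS18B (-0.13) and MRPL42 (-0.10) lay near 0. Of the 57 without them, 36 fell and 9 rose, with a median of -0.28. Over genes tested with a promoter in the table, 54.3% of the 435 with the YY1 letters fell, with a median of -0.21, and 43.5% of the 10864 without them, with a median of -0.06. Rises were fewer there too with the letters, 105 of the 435 against 3930 of the 10864. For the ETS letters, the 29 members that carry them (MRPL27, MRPL30 and MRPS18C included) had a median of -0.28, with 17 lower. The 41 others had a median of -0.43, with 29 lower. Over genes tested the order was the opposite, with 48.7% lower and a median of -0.14 with the ETS letters and 42.8% lower and a median of -0.04 without them.

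Gene span, length, exon number and level were set beside the fold change. Across the 78 members, Pearson's r of the log2 fold change with the logarithm of gene span was 0.03 (Spearman's rho 0.04), with that of transcript length 0.02 (-0.02), with that of exon number 0.05 (0.03) and with that of the DMSO level 0.03 (0.03). With transcript length, r was 0.44 (rho 0.35) over the 29 small-subunit genes and -0.14 (rho -0.20) over the 49 large-subunit genes. Over 13423 protein-coding genes tested, r was -0.03 with gene span, -0.07 with transcript length and 0.07 with exon number. With the DMSO level it was -0.4 (rho -0.2). That value cannot be compared with the one for the members, because the DMSO level is also the denominator of the fold change. The genes tested reach down to 0 CPM with DMSO, and the members only to 9.11 CPM. A gene at 0 CPM with DMSO passes the filter only through its AZD4573 counts. Genes share libraries and a scaling, so these values only describe them. Median fold changes were -0.24 for 21 members spanning up to 5 kb, -0.53 for 35 members of 5 to 20 kb and -0.28 for 22 longer members. In these classes 61.9%, 68.6% and 63.6% of members fell, against 38.0%, 41.3% and 46.5% of protein-coding genes tested.

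Other genes of mitochondrial translation and of mitochondrial DNA were read from lists, for ribosomal proteins with other symbols, assembly, translation factors and mitochondrial DNA. Of the rises in these 4 lists, only that of POLG2 remained under scaling to the mitochondrial mRNAs. Of 5 ribosomal proteins with other symbols, all were called. PTCD3 (-0.72), CHCHD1 (-0.35) and GADD45GIP1 (-0.19) fell. DAP3, a GTP-binding protein of the small subunit, rose from 135, 125 and 131 CPM to 149, 157 and 158 CPM (log2 fold change 0.24, SE 0.0446, adjusted p = 0.00022), and AURKAIP1 rose by 0.17.

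Of 28 genes for assembly of the mitochondrial ribosome or modification of its rRNA, 22 fell, 2 rose and 4 were not called, with a median of -0.56. The largest falls were of TRMT61B, a methyltransferase of mitochondrial RNA (-2.15, 15.9 to 3.60 CPM in the group means), and of FASTKD2, an RNA-binding protein (-1.83, 37.6 to 10.6 CPM). The 2 rises were of YBEY (0.58), an endoribonuclease, and of the GTPase MTG1 (0.48). Of 18 translation factors and related genes, 12 fell and 6 rose, with a median of -0.37. TACO1, an activator of translation of a cytochrome oxidase subunit, fell by 1.42, and PDF, the peptide deformylase, fell by 0.81. MRRF, the ribosome recycling factor, rose from 45.1 to 80.9 CPM (0.84), and TUFM, the elongation factor that delivers aminoacyl-tRNA, from 409 to 603 CPM (0.56). Of 9 genes for transcription and replication of mitochondrial DNA, 7 fell and 1 rose, with a median of -0.44. MTERF1 (-1.74) and TFB2M (-1.57), a cofactor of POLRMT, fell most, POLG2, the accessory subunit of the mitochondrial DNA polymerase, rose by 1.06, and SSBP1 was not called.

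The cytoplasmic ribosomal protein genes differed from the members in count and median. Of 88 found in the table, 85 were tested, of which 81 rose and 1 fell, with a median of 0.56; under scaling to the mitochondrial mRNAs none rose and 54 fell. The ratio of cytoplasmic to mitochondrial ribosomal protein counts was 12.7, 12.1 and 12.3 with DMSO and 22.7, 23.4 and 24.4 with AZD4573. The ratio is taken within each library and so does not depend on the scaling between libraries.

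**Figure D5:**
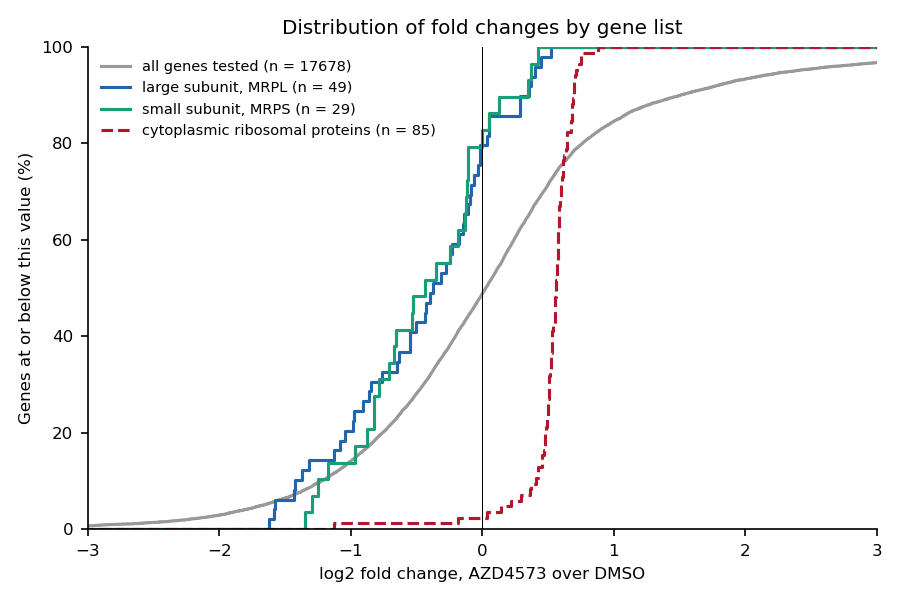
Cumulative distributions of the log2 fold change, AZD4573 over DMSO, as the percentage of genes at or below each value, for 49 MRPL genes, 29 MRPS genes, 85 cytoplasmic ribosomal protein genes and all 17678 genes tested. The horizontal axis is limited to log2 values from -3 to 3. In the middle of their range the curves of both mitochondrial subunits lie to the left of all genes (medians -0.37 and -0.44 against 0.03) and that of the cytoplasmic genes to the right (0.56). Scaling to the mitochondrial mRNAs moves every curve to the left, the median of all genes to -0.71.

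Transcripts made inside the organelle were higher as a share of the library. All 13 mitochondrial mRNAs rose, with a median of 0.71, as did the large-subunit rRNA MT-RNR2, from 4240 ± 72.2 to 7680 ± 448 CPM (SD, n = 3 per group; log2 fold change 0.86), and the small-subunit rRNA MT-RNR1, from 283 ± 37.8 to 448 ± 9.61 CPM (0.66). Scaled to the mitochondrial mRNAs, the log2 fold changes were 0.12 for MT-RNR2, which was still called higher, and -0.08 for MT-RNR1, which was not called. How rRNA was treated in library preparation is described differently in the labels and the study's methods, so these rRNA values are only relative.

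Direction depends on what the libraries are scaled to. When libraries were scaled so that the 13 mitochondrial mRNAs were level, the median of all genes tested moved from 0.03 to -0.71, and 11878 genes fell and 2144 rose in place of 6606 and 6596. All 78 members then fell and none rose, with medians of -1.11 in the large and -1.18 in the small subunit, and the median of the cytoplasmic genes was -0.18. The 10 rises, those of MRPL23 (-0.22), MRPL24 (-0.29) and MRPS25 (-0.32) among them, were falls on this scale. The median of the members lay below that of all genes under both scalings, -0.39 against 0.03 and -1.12 against -0.71. A change of scaling shifts all genes nearly alike, so the second gap is not a separate result. No external RNA standard was used here, so the amount of RNA per cell was not measured.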

How the data were processed

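Per the labels and the study's methods, the authors trimmed reads with Cutadapt 2.3, aligned them to GRCh38 with STAR 2.7.8a and estimated gene counts with RSEM 1.3.3, whose default ignores strand. The values the authors deposited are expected counts, already whole numbers, for 61541 genes and 5 reporter entries without counts. The labels describe poly(A) selection, the supplementary methods rRNA depletion.

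Libraries were grouped by label, 3 with AZD4573 and 3 with DMSO. Replicates were not copies of each other (chi-square per degree of freedom 6.37 to 25.7). Counts were filtered (filterByExpr, minimum count 10), TMM-scaled and tested with edgeR 4.0.16 (quasi-likelihood, Benjamini-Hochberg over 17678 genes; R 4.3.3, limma 3.58.1); DESeq2 1.42.0, other scalings and filters, a replicate block and leaving out each library were alternatives. On simulated data edgeR recovered 59 of 59 changes of 0.8 (log2) and 65 of 65 of 1.5 among genes with a mean count of at least 300, with 8 false calls in 17478 unchanged genes. Only 100 genes of each size were changed there, equally up and down, far fewer than were called in the data. The simulation therefore cannot show whether the scaling of these libraries is right. Every member had over 300 counts in each library, and counting error weighs most on the lowest, MRPS36. Coordinates, exons and starts are GENCODE v44 and promoters RefSeq, both on GRCh38.

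The members, lists and tests were chosen with earlier results of these data known. Each member may be named; full values are given, within each subunit, for the 5 largest falls and up to 5 largest rises whose groups did not overlap, the 3 highest genes per kilobase, and MRPS18A, MRPS18B, MRPS18C, MRPS30, MRPL12, MRPL58 and MRPS36. Of other lists, the 2 largest falls and rises are named. MRPL46 and MRPS11 were given in full, and the promoters shown were picked, after their values were seen.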

Additional observations from a re-analysis of the deposited data

How the results depend on the processing

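Of 1092 values of single members under 14 alternatives, 1007 kept their direction and side of the threshold, and 56 of 78 members did so in every alternative but the scaling to mitochondrial mRNAs. That scaling gave 49 falls and no rise (0) in the large subunit and 29 falls and 0 rises in the small subunit, with medians of -1.11 and -1.18. It turned MRPL11 (-0.37), MRPL23 (-0.22), MRPL24 (-0.29), MRPL28 (-0.69), MRPL33 (-0.45), MRPL40 (-0.45), MRPL41 (-0.70), MRPL48 (-0.34), MRPL52 (-0.69), MRPL53 (-0.38), MRPS11 (-0.61), MRPS15 (-0.36), MRPS23 (-0.69), MRPS25 (-0.32) and MRPS33 (-0.39). Scaling by library size alone moved the medians to -0.48 and -0.54, that of all genes to -0.08, and turned MRPL28 (-0.06), MRPL41 (-0.07), MRPL52 (-0.05) and MRPS23 (-0.05), none of them called in the report; it gave 38 and 24 falls, gained 11 calls and lost that of MRPL40 (adjusted p = 0.086). A minimum of 10 counts in every library lost the calls of MRPL30 (0.11), MRPL55 (0.10) and MRPS27 (0.13) and gained that of MRPS11 (0.048), RLE scaling lost that of MRPS27 (0.051), DESeq2 gained that of MRPS34 (0.036), and 5 calls were gained without a filter. Fold minimums of 1.5 and 2 left 18 and 10 falls in the large and 12 and 4 in the small subunit, and 0 rises. The share of all genes tested was counted for the minimum of 1.5 only. Moving MRPS30 and MRPS18A to the large subunit gave a small-subunit median of -0.35 and a log2 difference of -0.003 in the ratio of large to small sums, which was 0.084 in the report and 0.019 without MRPS26; both checks of the ratio were added after the values were seen. Members near 0 changed sign under a minimum of 10 counts in every library (MRPL4 0.00, MRPL21 0.02, MRPL37 0.02, MRPS16 0.03), without a filter (MRPL41 -0.01) and when a library was left out (ranges: MRPL21 -0.07 to 0.05, MRPL28 -0.01 to 0.13, MRPL37 -0.06 to 0.02, MRPL41 0.00 to 0.07, MRPS16 -0.04 to 0.03). Leaving out a library lost calls (adjusted p, edgeR) for MRPL30 (0.12 without AZD4573 replicate 2, 0.055 without AZD4573 replicate 3, 0.099 without DMSO replicate 1), MRPL40 (0.06 without AZD4573 replicate 3, 0.075 without DMSO replicate 2), MRPL55 (0.14 without AZD4573 replicate 2, 0.085 without DMSO replicate 2), MRPS24 (0.057 without AZD4573 replicate 2) and MRPS27 (0.071 and 0.13 without AZD4573 replicates 2 and 3, 0.079 and 0.06 without DMSO replicates 1 and 2). It gained calls for MRPL28 (0.043 without DMSO replicate 1), MRPL42 (0.048 without AZD4573 replicate 3), MRPS11 (0.014 without AZD4573 replicate 2), MRPS18B (0.038 without DMSO replicate 3), MRPS21 (0.0084 without AZD4573 replicate 1) and MRPS34 (0.032 and 0.025 without DMSO replicates 2 and 3). Replicate numbers did not pair the libraries (correlations -0.0208, 0.0417 and 0.0316), and a replicate block changed no member's call, with 32 and 19 falls. Adding counts of named pseudogenes changed no call, although they hold up to 34.3% of counts for MRPS31 and 6.17% for MRPL45. Over 20% of exon bases are shared with other genes in 20 members, which counting without strand may not separate.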
